A study of Homo sapiens with 12 samples.

Results

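The mRNAs described here were picked by gene symbols of the cell cycle and of DNA replication, and the data show where dSpCas9 was found on them. A gene belonged to the set when it is protein-coding in GENCODE 44 and its symbol names a minichromosome maintenance protein (MCM), a cyclin, a cyclin-dependent kinase (CDK) or its inhibitor, a CDC, CENP, ORC, RFC, PLK, AURK, E2F, BUB or ANAPC protein, or a subunit of DNA polymerase alpha, delta or epsilon. CDKN1A and CCNG1 were left out, and POLE did not match, since polymerase symbols had to end in a digit. These symbols matched 152 genes, of which 53 (34.9%) carried at least 1 peak and 99 carried none. Over all protein-coding genes, 3624 of 20046 (18.1%) carried a peak. By role, 13 of the 152 genes were classed under transcription and 25 as other, so not all act in the cell cycle or in replication. A peak was counted for a gene when it overlapped an exon on the same strand, which gave 294 peaks on these mRNAs among the 18128 peaks of the 4 deposited lists. The rule uses symbols and no measured value, but the set was proposed with earlier results of these data known.

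The study asked whether Cas9 contacts human RNA when no guide RNA is present. It used eCLIP, in which UV light links a protein to the RNA it touches, the protein is pulled down with an antibody (immunoprecipitation, IP), and the linked RNA is sequenced. The cells were Lenti-X 293T, a HEK 293T human embryonic kidney line with the large T antigen of SV40, transfected with V5-dSpCas9, with 3xFLAG-dSpCas9 or with an empty vector. dSpCas9 is Streptococcus pyogenes Cas9 without nuclease activity, here without a nuclear localization signal and without a guide RNA. There were 12 libraries in 6 groups of 2 replicates. For each antibody these were the IP from cells with the tagged protein, a size-matched input from the same cells (RNA of the same membrane region without IP), and the same IP from cells with the empty vector. All cells received UV at 400 mJ/cm2 in 2 exposures, and only the membrane from 115 kDa up was kept. The labels describe biological replicates from separate plates, but the deposited files hold 1 value per peak for both replicates together, so no value below has a replicate error and no difference between lists could be tested. The lists are named V5 over input, V5 over empty vector, FLAG over input and FLAG over empty vector. The 2 lists of an antibody share their IP libraries and are not independent of each other.

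In the cell cycle, cyclins switch on CDKs, and these kinases drive passage from one phase to the next. D-type cyclins with CDK4 or CDK6 inactivate the RB protein, which frees E2F transcription factors to switch on genes for DNA synthesis, among them the MCM genes and CCNA2. Before S phase the origin recognition complex (ORC) and its partners load the MCM2 to MCM7 ring, the core of the replicative helicase, onto origins. In mitosis the anaphase-promoting complex (APC/C) marks cyclins for destruction, and CENP proteins form the centromere and kinetochore.

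Peaks of all 4 lists were intersected on the same strand, keeping the overlapping part where it covered at least 50% of the first interval. Of 749 intervals, 10 lay on these mRNAs, in 9 genes (5.92% of the 152, against 2.07% of all protein-coding genes). The sequences of 9 of them are printed because these are the stretches found with both antibodies and against both controls, and so the places that the 4 lists share. The tenth, the second site on CCND2, is described by its position. Letters were read from the hg38 genome on the strand of the gene, 5′ to 3′. Capitals mark a GU-loop:5nt-stem. This is a GU (GT in these letters) whose U had a predicted pairing probability below 0.7, followed by 5 bases each above 0.5. The structure is the one that the guide RNA of SpCas9 has at its repeat. In coding sequence the whole interval is given, and in or across a 3′ UTR a window of 30 nt is given. That window was placed on the called motif in CCNI, CCND2 and E2F2, and around the midpoint in MCM2 and RFC1, where none was called.
CCNA2: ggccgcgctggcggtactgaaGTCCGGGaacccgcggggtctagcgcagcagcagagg
CCNF: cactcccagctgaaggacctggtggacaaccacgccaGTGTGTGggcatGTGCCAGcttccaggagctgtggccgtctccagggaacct
E2F1: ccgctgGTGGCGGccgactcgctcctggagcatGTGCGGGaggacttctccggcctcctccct
MCM7: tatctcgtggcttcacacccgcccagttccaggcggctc
CCNI: gtcatgtagtttcaacaaGTGCTACctttg
CCND2: cgcttccctgcaGTCTAGCacctctagggc
E2F2: cagggaccctgtGTAGGATctcgtttgtgg
MCM2: ggcgtgagttgcgtattcaggctgcttttg
RFC1: tgataggactgcttgggtcctccactgtcc

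The CCNA2 interval lies at chr4:121823431-121823488 (minus strand), in exon 1 of 8, with its middle 169 nt from the first base of the start codon. That of CCNF is chr16:2432964-2433052 (plus strand), in exon 3 of 17. The E2F1 interval, chr20:33676858-33676920 (minus strand), is in exon 7 of 7, in the coding sequence (CDS) 158 nt before its end. The MCM7 interval, chr7:100093000-100093038 (minus strand), is in exon 15 of 15, 88 nt before the end of the CDS. The CCNI interval, chr4:77048198-77048308 (minus strand), runs over the stop codon, and the window shown is chr4:77048198-77048227. The other 5 intervals are in 3′ UTRs. They are chr1:23507949-23508038 in E2F2, chr3:127622101-127622198 in MCM2, chr4:39288493-39288609 in RFC1, and chr12:4303996-4304042 and chr12:4304650-4304748 in CCND2. The windows shown are chr1:23507986-23508015 for E2F2, chr3:127622135-127622164 for MCM2, chr4:39288537-39288566 for RFC1 and chr12:4304000-4304029 for CCND2. Of the 10 intervals, 5 were in CDS and 5 in 3′ UTRs by their midpoint, and none was in a 5′ UTR. A GU-loop:5nt-stem was called in 6 of the 10 (60%), against 36.5% of the 742 intervals on protein-coding genes. CCNF and E2F1 each held 2 such motifs, and none was called in the MCM2, MCM7 and RFC1 intervals or in the second CCND2 interval.

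Enrichment below is the deposited log2 of IP reads divided by control reads, as a geometric mean of both replicates, and a peak entered a list only at 3 or more. In the CCNA2 interval it was 4.92 for V5 over input, 5.62 for V5 over empty vector, 5.09 for FLAG over input and 4.08 for FLAG over empty vector. It is the only one of the 10 intervals that stayed when every list had to reach a log2 enrichment of 4. The E2F1 interval had 4.72, 4.39, 4.49 and 3.32 in the same order, and the MCM2 interval 5.23, 3.94, 4.09 and 3.05. FLAG over empty vector gave the lowest of the 4 values in these 3 genes, in CCNI, RFC1 and MCM7, and at the first CCND2 site. In E2F2 that list gave 4.02, between 4.13 for V5 over input and 3.44 for V5 over empty vector, with 3.73 for FLAG over input. The CCNF interval had 3.64, 4.25, 3.97 and 3.88, and the CCNI interval had 4.36, 3.85, 3.68 and 3.30. Both CCND2 sites were higher with V5 than with FLAG, at 3.94 and 3.80 against 3.17 and 3.02 for the first and at 4.04 and 4.32 against 3.10 and 3.22 for the second. In RFC1 the order was the other way for the input lists, with 3.55 for V5 and 4.47 for FLAG, while the lists over empty vector gave 3.71 and 3.35. The MCM7 interval had 4.00, 3.82, 3.74 and 3.16.

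**Figure D1:**
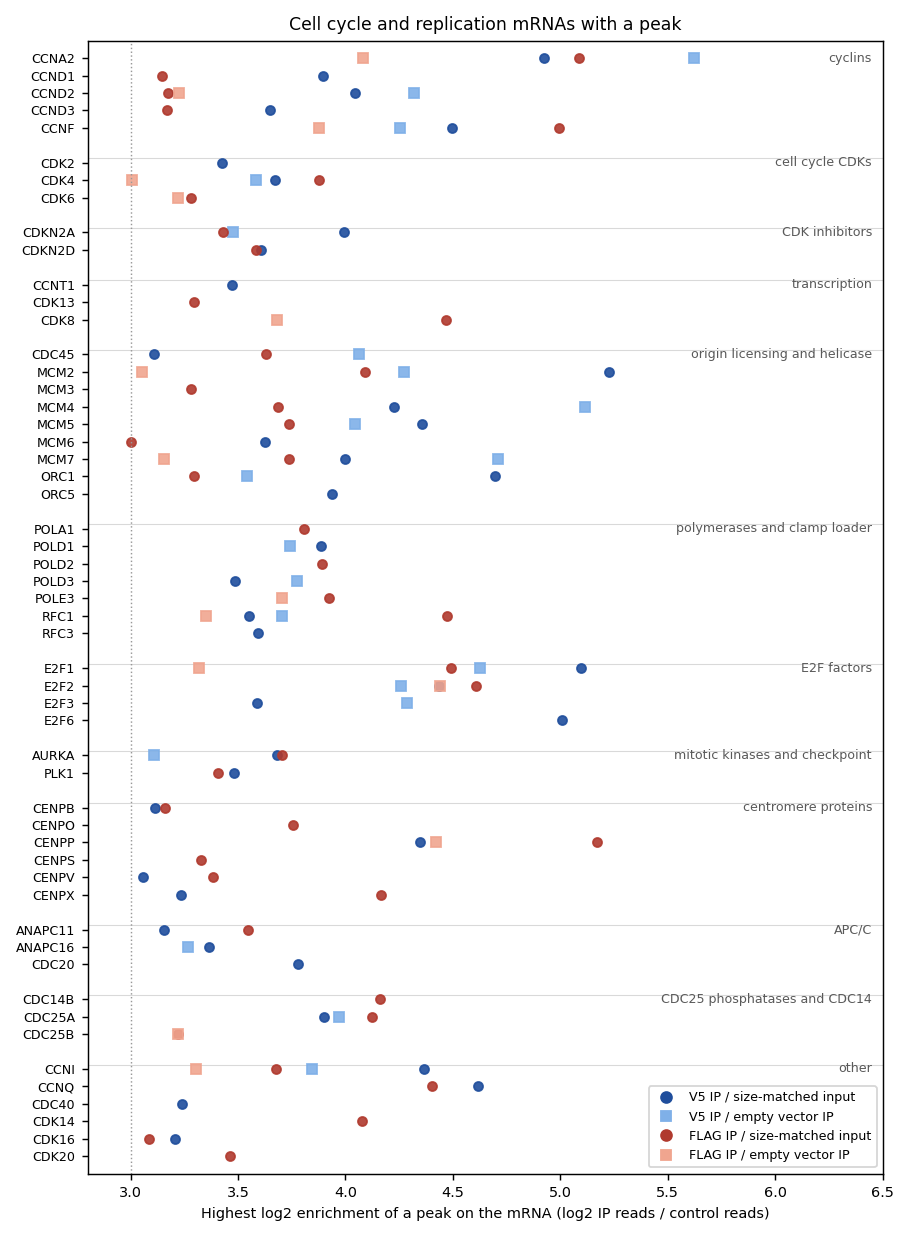
Each row is 1 of the 53 mRNAs with a peak, grouped by role, and each point is the highest log2 enrichment (IP reads over control reads, horizontal axis) of a peak on that mRNA in 1 of the 4 lists. The dotted line marks the threshold of 3, and only 10 mRNAs have a point in every list, with the highest value at 5.62 for CCNA2.

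By list, 40 of the 152 genes (26.3%) had a peak for V5 over input, against 13.6% of all protein-coding genes. The shares were 13.8% (21 genes) against 6.78% for V5 over empty vector, 27.6% (42 genes) against 13.2% for FLAG over input, and 9.87% (15 genes) against 4.96% for FLAG over empty vector. An mRNA can give a peak only if the cells make it, and mRNA levels were not analysed here, so the part that level plays in these shares was not tested. A gene without a peak is therefore not shown to be unbound. The genes with a peak had a median canonical mRNA of 3119 nt and those without one 2580 nt, while the medians over all protein-coding genes were 3752 nt with a peak and 2885 nt in all. The number of peaks was 116, 64, 91 and 23 in the same order of lists. As peaks per kb of mRNA, over the genes with a peak, the medians were 0.713, 0.532, 0.555 and 0.362, and those of all protein-coding genes were 0.461, 0.417, 0.438 and 0.337.

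Median peak heights on these mRNAs were near those of all peaks, and peaks of high enrichment were a smaller share of them in the FLAG lists. The median log2 enrichment was 3.60 for V5 over input and 3.60 for all peaks on protein-coding genes. It was 3.76 against 3.62 for V5 over empty vector, 3.58 against 3.61 for FLAG over input and 3.53 against 3.59 for FLAG over empty vector. Peaks at a log2 enrichment of 4 or more made up 23.3%, 31.2%, 17.6% and 17.4% of the peaks on these mRNAs, against 26.7%, 28.2%, 28.2% and 26.4% of all. The highest values were 5.23, 5.62, 5.17 and 4.44, against maxima of 7.60, 7.20, 8.23 and 8.01 over all protein-coding genes. The latter come from far more peaks (6431, 2962, 6373 and 1927), and a maximum tends to rise with the number of peaks. The deposited −log10 p ends at a ceiling of 400, which 251, 24, 307 and 88 peaks on protein-coding genes reached in these lists. None of the 294 peaks did, and their highest −log10 p was 76.6. The lowest enrichment was 3.00, of a FLAG over input peak on MCM6 that lay just inside the threshold.

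Of the 53 genes, 10 (18.9%, against 15.4% of the 3624 protein-coding genes with a peak) had a peak in all 4 lists, namely CCNA2, CCND2, CCNF, CCNI, CDK4, E2F1, E2F2, MCM2, MCM7 and RFC1. CDK4 has no interval in the intersection, because its peaks overlapped by less than the minimum. A further 16 genes (30.2%, against 38.6%) had a peak in 1 list only, always over input. V5 lists alone named 11 genes (20.8%, against 25.9%), such as CDK2, ORC5, POLD1 and E2F3. FLAG lists alone named 13 (24.5%, against 20.9%), such as POLA1, POLE3, CDK6 and CDK8. None of the 53 genes had a peak over the empty vector without one over input for the same antibody, which 5.38% of the 3624 genes had. These shares were not tested against each other. In 29 genes (54.7%, against 51.2%) both antibodies gave a peak over input, and the FLAG maximum was the higher one in 13 of them, with a median difference (FLAG minus V5) of -0.07. RFC1 (3.55 for V5, 4.47 for FLAG) and CENPX (3.23 and 4.17) stood on the FLAG side. ORC1 (4.70 and 3.30) and MCM2 (5.23 and 4.09) stood on the V5 side.

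**Figure D2:**
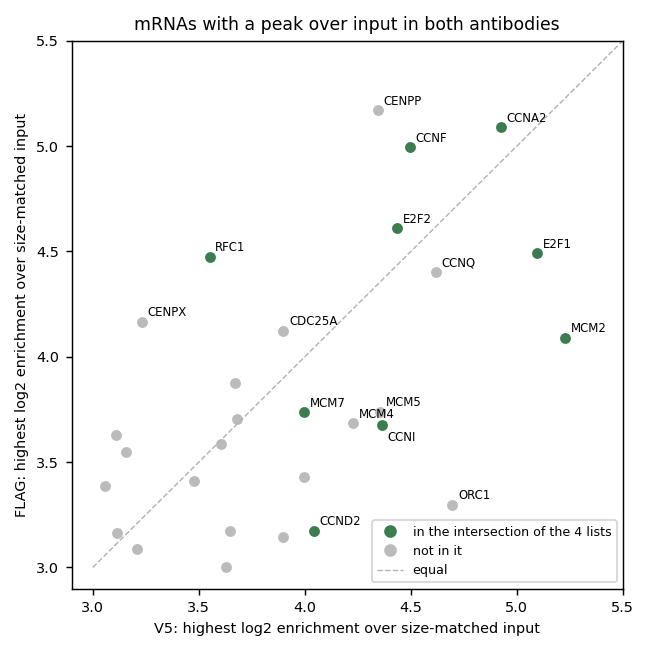
Each point is 1 of the 29 mRNAs with a peak over size-matched input in both antibodies, placed by its highest log2 enrichment for V5 (horizontal axis) and FLAG (vertical axis). The dashed line marks equal values, 13 points lie above it, and the 9 mRNAs of the 4-list intersection are green.

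Peaks recurred at the same positions to different extents. Of the 116 peaks for V5 over input, 56.9% (95% Wilson interval 47.8 to 65.5) overlapped a peak of FLAG over input, against 53.6% of all peaks on protein-coding genes. Of the 91 peaks for FLAG over input, 58.2% (48.0 to 67.8) overlapped one of V5 over input, against 55.4% of all. The share of V5 over input peaks that recurred over the empty vector was 48.3% (39.4 to 57.3), against 36.5% of all. For FLAG the share was 24.2% (16.5 to 33.9), against 28.1%. Across antibodies, 11.2% (6.67 to 18.2) of the V5 over input peaks overlapped a peak of FLAG over empty vector, against 21.2% of all. These intervals treat peaks as independent, although many adjoin, and the lists over input and over empty vector of 1 antibody share the same IP libraries. Without MCM2 to MCM7, the share of V5 over input peaks that recurred over the empty vector of V5 was 39.5%.

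Among the cyclins of types A, B, D, E and F, 5 of 11 genes (45.5%, against 18.1% of all protein-coding genes) had a peak. They had 51 peaks in all lists together. The other cyclin genes of the set, such as CCNI, CCNQ and CCNT1, were classed under transcription or as other and are not in these counts. Cyclin A2 (CCNA2), the partner of CDK2 in S phase, had all of its 12 peaks in exon 1, 5 in the 5′ UTR and 7 in the first part of the CDS. The strongest peaks lay at nt 352 to 454 of the mRNA, where V5 gave 1 peak in each list (4.92 over input and 5.62 over empty vector). FLAG split the same stretch at nt 395 and gave 5.00 and 5.09 over input, and 3.62 and 4.08 over empty vector. The 5′ UTR peaks were lower, between 3.14 and 4.02, and had no counterpart in FLAG over empty vector. The B-type and E-type cyclins CCNB1, CCNB2, CCNE1 and CCNE2, which act in mitosis and at S phase entry, had no peak in any list.

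All 3 D-type cyclins, the sensors of growth signals in G1, had peaks over input with both antibodies. In CCND1 these were in the 3′ UTR, with a maximum of 3.90 for V5 and 3.15 for FLAG. In CCND3 they were in CDS exon 4, with 3.65 and 3.17. CCND2 alone had peaks over the empty vector, and its 13 peaks were in the 3′ UTR except for 1 in CDS exon 2 (V5 over input, 3.09). They clustered in the last part of a 3′ UTR of 5344 nt, and the stretch at nt 5781 to 5925 of the mRNA was present in all 4 lists. One of the CCND2 peaks also overlapped an exon of a second annotated protein-coding gene (ENSG00000285901), so its reads cannot be assigned to CCND2 with certainty.

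CCNF encodes cyclin F, a substrate receptor of an SCF ubiquitin ligase that does not work through a CDK. All 4 lists had a peak at the interval in exon 3, and the antibodies differed elsewhere. There were 10 peaks for FLAG over input and 5 over empty vector, against 5 and 1 for V5. The highest, 4.99 at nt 3995 to 4108 near the end of the 3′ UTR, was found for FLAG over input and in no other list. V5 over input had 3 adjoining peaks of 4.18, 4.49 and 4.29 at nt 2764 to 3023, where FLAG over input had 2 peaks of 3.94 and 3.45. CCNI, a cyclin-like protein, had its peaks in the last exon, and in all 4 lists a peak ran across the stop codon. The input lists also had a separate peak upstream in the CDS (3.14 for V5 and 3.56 for FLAG). CCNQ, the cyclin of CDK10, had 4 peaks over input with each antibody, at up to 4.62 for V5 and 4.40 for FLAG, and none over the empty vector. As peaks per kb over input, CCNQ stood at 3.19 for both antibodies, above CCNF at 1.18 for V5 and 2.36 for FLAG.

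Among the cell cycle CDKs, CDK2, CDK4 and CDK6 had peaks and CDK1, the mitotic kinase, had none. CDK4 peaks lay in the CDS, mostly in exons 4 and 5, with maxima of 3.67, 3.59, 3.88 and 3.01 in the order of lists above. CDK2 had 1 peak (V5 over input, 3.43, exon 5). CDK6 had a peak in each FLAG list, but in different parts of its 3′ UTR, at nt 11206 to 11303 over input (3.28) and at nt 3959 to 4171 over the empty vector (3.22). Of the 6 CDK inhibitors, CDKN2A and CDKN2D had peaks (33.3%, against 18.1% of all protein-coding genes). CDKN2A, which encodes p16INK4a, the inhibitor of CDK4 and CDK6, had all 5 peaks in exon 1 of its canonical transcript. Values there were 3.49, 4.00 and 3.73 for V5 over input, 3.48 for V5 over empty vector and 3.43 for FLAG over input.

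Of 8 E2F genes, 4 (50%, against 18.1% of all protein-coding genes) had a peak. E2F1, E2F2 and E2F3, the activators, all had peaks, with 16, 11, 9 and 4 in the 4 lists. Of the 5 genes E2F4 to E2F8, only E2F6, a repressor, had one, in its 3′ UTR (V5 over input, 5.01, with no peak in the other lists). This difference within the family was not tested. E2F1 peaks formed a block over the end of exon 6 and the start of exon 7, from nt 1175 to 1314, with the highest value at 5.10 (V5 over input, nt 1219 to 1242). A second block in the 3′ UTR, from nt 1547 to 1825, was found over input with both antibodies (3.23 to 3.88) and had no peak over the empty vector. E2F2 differed from E2F1 in that all 20 of its peaks were in the 3′ UTR. Its peak at nt 5080 to 5150, close to the end of the mRNA, had 4.44 for V5 over input, 4.26 over empty vector, 4.61 for FLAG over input and 4.44 over empty vector, at nt 5094 to 5116 in the last list. That site is not among the 10 intervals because the FLAG over empty vector peak covers less than the minimum. E2F3 had V5 peaks only, at up to 4.28 in the 3′ UTR.

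**Figure D3:**
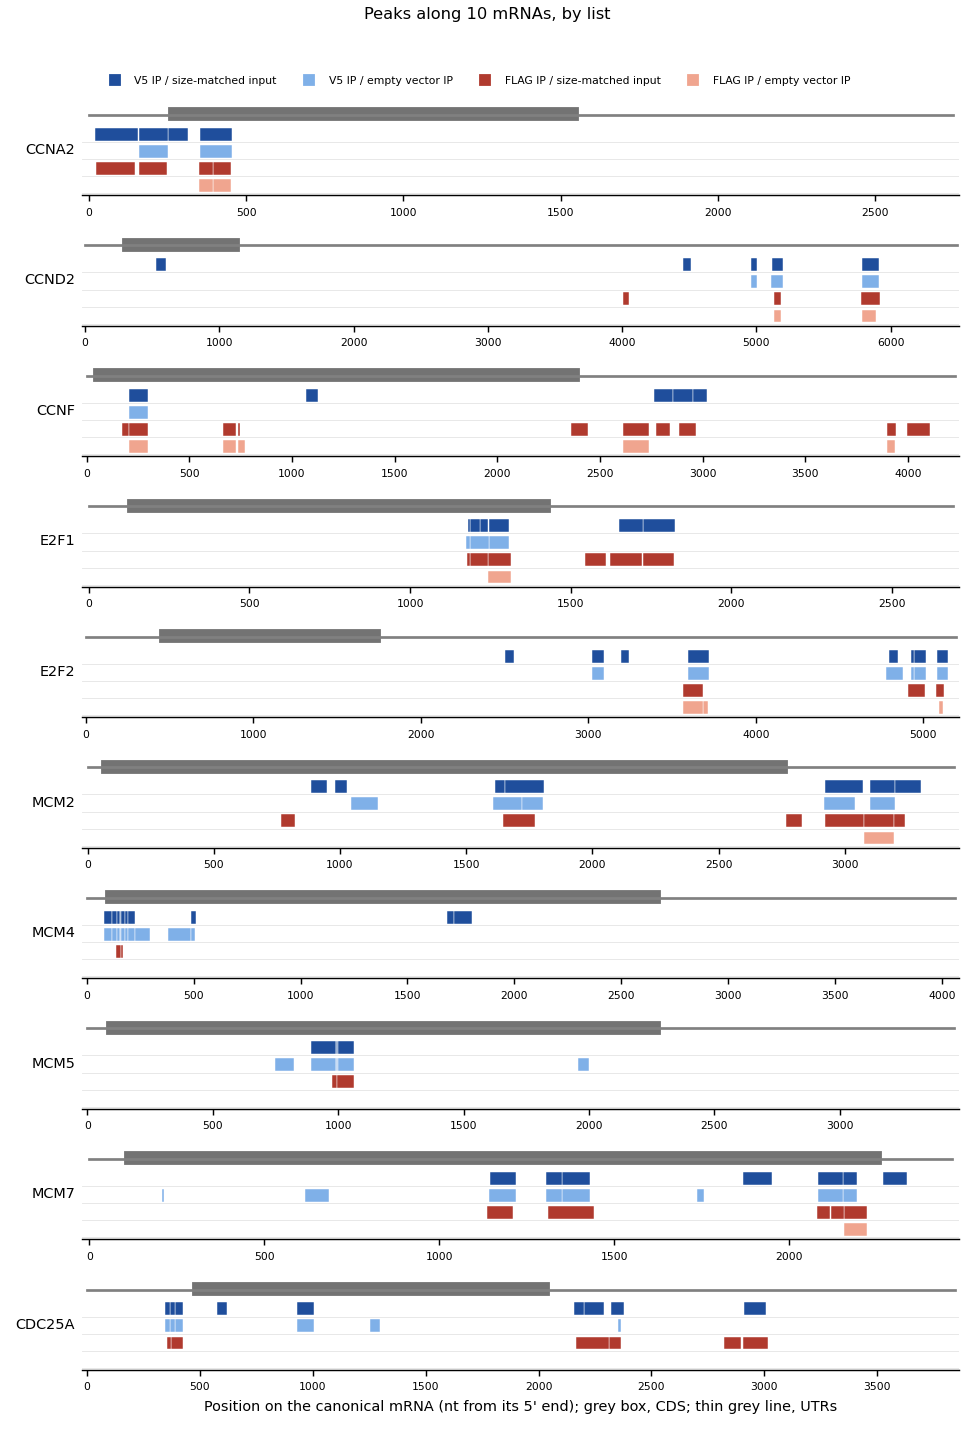
Peaks of the 4 lists (coloured rows) are drawn along 10 canonical mRNAs, with position in nt from the 5′ end on the horizontal axis, which has its own scale for each mRNA, and the CDS as a grey box. CCNA2 and MCM4 peaks lie near the start of the CDS, E2F2 and most CCND2 peaks in the 3′ UTR, and MCM7 peaks along the CDS.

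The helicase subunits MCM2 to MCM7 held many of the V5 peaks and few of those for FLAG over empty vector. All 6 had a peak over input, and together they had 30 for V5 over input, 30 for V5 over empty vector, 17 for FLAG over input and 2 for FLAG over empty vector. This was 25.9%, 46.9%, 18.7% and 8.7% of the peaks on the 152 genes in each list. The cyclins of types A, B, D, E and F had more in the FLAG lists, with 19 over input and 9 over the empty vector. FLAG over empty vector is also the shortest list, and without the MCM genes 34 peaks for V5 over empty vector and 21 for FLAG over empty vector were left. MCM4 had 11 peaks in each V5 list, 2 for FLAG over input and none for FLAG over empty vector. Of its 24 peaks, 22 lay in the first 20% of the CDS. Many are fragments of 1 stretch, since 8 peaks adjoined without a gap from nt 83, just before the start codon, to nt 224 in both V5 lists, and some were only 2 or 3 nt long. Along that stretch the enrichment over the empty vector was 3.48 at the upstream end, reached 5.12 at nt 143 to 155 and was 4.36 at the downstream end. Over input it was 3.16, 3.77 and 3.66 at the same places. The 2 FLAG over input peaks, 3.13 and 3.69, lay inside the same stretch.

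MCM2 had peaks in exon 10 and in the 3′ UTR. At nt 3076 to 3197 of the mRNA all 4 lists had a peak, and its 5.23 for V5 over input was the highest value of that list on these mRNAs. In exon 10 V5 over empty vector reached 4.27, and FLAG over input had 3.30 there. MCM7 had 20 of its 21 peaks in the CDS, in exons 2, 5, 9, 11, 12, 13 and 15, and its highest value, 4.71 in exon 5, was found for V5 over empty vector alone. MCM5 peaks met at the junction of exons 7 and 8, with 4.22 and 4.36 for V5 over input on either side of it. MCM3 had 1 peak (FLAG over input, 3.28) and MCM6 had 1 in each input list (3.63 for V5 and 3.00 for FLAG), at different places. Per kb of mRNA, V5 over input gave 2.84 peaks for MCM7, 2.71 for MCM4 and 2.04 for MCM2, against 1.16 for MCM5.

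**Figure D4:**
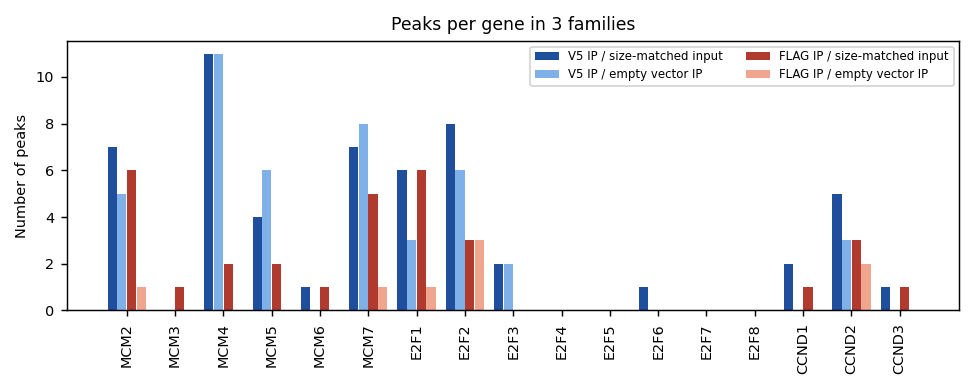
Bars give the number of peaks (vertical axis, from 0) in each of the 4 lists for MCM2 to MCM7, E2F1 to E2F8 and the 3 D-type cyclins. MCM4 has 11 peaks in each V5 list and 2 in the FLAG lists together, while E2F4, E2F5, E2F7 and E2F8 have none.

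Of the other licensing and helicase genes, CDC45, which joins the MCM ring in the active helicase, had a peak over the first 80 nt of its mRNA, with 3.11 for V5 over input, 4.06 over empty vector and 3.63 for FLAG over input. ORC1, the largest ORC subunit, had V5 peaks in its last exon (4.70 over input and 3.54 over empty vector) and a FLAG over input peak in the 5′ UTR (3.30), so the antibodies did not share a site. ORC5 had 1 peak at its 5′ end (V5 over input, 3.94), and ORC2, ORC3, ORC4 and ORC6 had none. The loading factor CDC6, the kinase CDC7 and MCM10 had none.

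Of 14 polymerase and clamp loader genes, 7 had a peak (50%, against 18.1% of all protein-coding genes). RFC1, the large subunit of the clamp loader, was the one in all 4 lists, through its 3′ UTR. POLE3, a small subunit of polymerase epsilon, had the same 3′ UTR peak in both FLAG lists (3.92 over input and 3.71 over empty vector) and none with V5. POLD1, the catalytic subunit of polymerase delta, showed the reverse, with V5 peaks in exon 19 at up to 3.89 over input and 3.74 over empty vector. POLA1 had 1 FLAG over input peak (3.81).

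Of 11 mitotic kinase and checkpoint genes, AURKA and PLK1 had peaks, and AURKB, BUB1, BUB1B and BUB3 had none. That is 18.2% of these genes, near the 18.1% of all protein-coding genes with a peak. AURKA had 4 of its 6 peaks in an alternative exon that lies in an intron of the canonical transcript (3.11 to 3.71), and the other 2 in the 3′ UTR. PLK1 peaks covered the first 318 nt of the mRNA for V5 over input (3.35 to 3.48). Of 16 APC/C genes, 3 (18.8%) had peaks. ANAPC11, the RING subunit, had maxima of 3.16 for V5 and 3.55 for FLAG over input, just after its stop codon. CDC20, the APC/C activator, had 2 V5 over input peaks (3.78 and 3.59). Of 21 CENP genes, 6 (28.6%) had peaks. CENPP had the highest FLAG over input value of all these mRNAs, 5.17, with 4.42 for FLAG over empty vector and 4.34 for V5 over input, at chr9:92325857-92326012. That stretch starts upstream of the annotated start of the gene at chr9:92325953, so it lies only partly on CENPP.

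CDC25A, the phosphatase that activates CDK2 and CDK1, had 21 peaks, 9 for V5 over input, 6 for V5 over empty vector and 6 for FLAG over input. They lay in the 5′ UTR (8 peaks, 3.53 to 3.97), in the 3′ UTR (9 peaks, up to 4.12) and in the CDS (4 peaks, all V5). None was found for FLAG over empty vector. CDC25B had 1 peak position, at 3.22 in both FLAG lists. Of the 13 transcriptional cyclin and CDK genes, CCNT1, CDK8 and CDK13 had peaks (23.1%, against 18.1% of all protein-coding genes). CDK8, a kinase of the Mediator complex, reached 4.47 for FLAG over input and 3.68 over the empty vector.

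By region, the midpoints of V5 over input peaks lay in the 5′ UTR in 7.76% of cases, in the CDS in 52.6% (43.6 to 61.4) and in the 3′ UTR in 37.1% (28.8 to 46.1). All peaks on protein-coding genes gave 9.03%, 51.8% and 38.0%. The mRNAs with a peak in that list were 4.98% 5′ UTR, 46.8% CDS and 48.2% 3′ UTR by length. Those in V5 over empty vector were 50.7% CDS and 44.1% 3′ UTR. The mRNAs in FLAG over input were 44.8% and 49.7%, and those in FLAG over empty vector 35.3% and 59.3%. For V5 over empty vector the CDS share was 67.2% (55.0 to 77.4) and the 3′ UTR share 23.4%, against 62.2% and 27.8% of all. FLAG over input had 41.8% (32.2 to 52.0) in the CDS and 47.3% (37.3 to 57.4) in the 3′ UTR, against 51.0% and 40.1% of all. FLAG over empty vector had 39.1% and 56.5%, against 48.4% and 46.9%, with 23 peaks behind these shares. On these mRNAs the CDS share was above the 3′ UTR share in both V5 lists and below it in both FLAG lists. This difference between antibodies was not tested, and neither was the part that region lengths play in it. Without MCM2 to MCM7 the CDS share was 41.9% for V5 over input and 44.1% for V5 over empty vector, and 33.8% and 38.1% for FLAG. The 3′ UTR share of V5 over input was then 44.2%, above the CDS share.

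**Figure D5:**
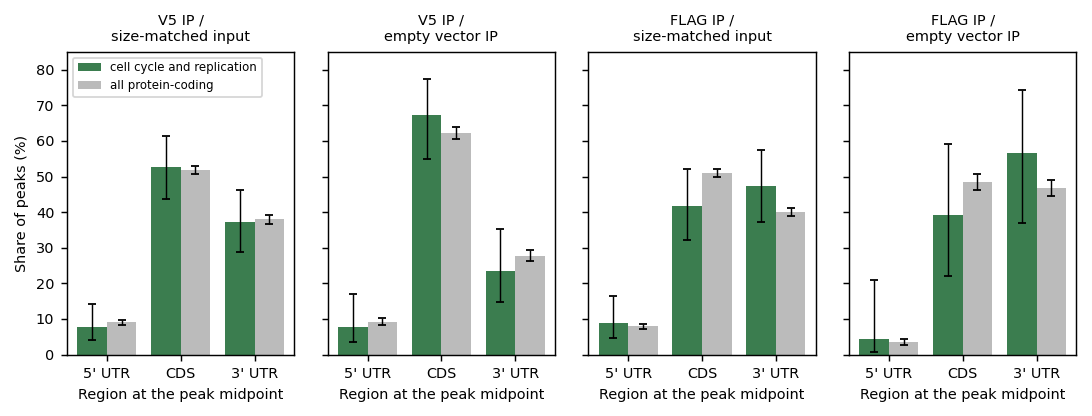
Bars give the share of peaks (%, vertical axis from 0) with their midpoint in the 5′ UTR, CDS or 3′ UTR, for the cell cycle and replication mRNAs (green) and for all protein-coding genes (grey), in each of the 4 lists. Error bars are 95% Wilson intervals for counting error, and every green interval overlaps the grey bar beside it, as at 37.1% and 38.0% for the 3′ UTR in V5 over input.

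Within the CDS, the first 20% held 36.1% of the V5 over input peaks and 37.2% of the V5 over empty vector peaks, against 27.7% and 27.3% of all. These shares rested on MCM4, and without it they were 26.0% and 15.6%. For FLAG the first 20% held 26.3% over input and 33.3% over the empty vector (3 of 9 peaks), against 23.9% and 20.9%.

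Some neighbouring peaks ended at an exon boundary and continued in the next exon, which are distant in the genome and adjacent in the spliced mRNA. With ends within 1 nt of the boundaries, this was seen for MCM4 at exons 2 and 3, MCM5 at exons 7 and 8 and E2F1 at exons 6 and 7, in both V5 lists and in FLAG over input. It was also seen for CDK4 (exons 4 and 5, V5 over input), CCNF (exons 2 and 3, FLAG over input) and MCM4 at exons 4 and 5 (V5 over empty vector). No such pair was found for FLAG over empty vector. This count was added after the values were seen. Such peaks made up 6.9%, 12.5%, 8.79% and 0% of the peaks on these mRNAs in the order of lists above, against 10.8%, 12.6%, 12.5% and 12.8% of all. No peak of these mRNAs spanned an exon junction as 1 entry, so a single stretch of bound mRNA can count as 2 peaks.

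The GU-loop:5nt-stem was called in 38.8% (30.4 to 47.9) of V5 over input peaks, 34.4% (23.9 to 46.6) of V5 over empty vector peaks, 49.5% (39.4 to 59.5) of FLAG over input peaks and 43.5% (25.6 to 63.2) of FLAG over empty vector peaks. The shares of all peaks on protein-coding genes were 41.7%, 39.6%, 39.7% and 40.0%. The FLAG over input share moved to 34.1% when peaks were folded without their flanks. Peaks there were also longer, with a median of 86 nt against 72 nt for all, and the part of length in the share was not tested. A call needs 7 bases inside the peak, so fragments as short as the 2 nt found in both V5 lists could not be called. Without MCM2 to MCM7 the shares were 41.9%, 47.1%, 51.4% and 47.6% in the same order of lists. By gene, the motif was called in 11 of 16 E2F1 peaks and in 2 of 21 CDC25A peaks. Median GC content was 61.8%, 61.1%, 60.0% and 54.7%, near the 60.6%, 61.0%, 59.0% and 56.1% of all.

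A fixed list of 123 other genes of the same processes lies outside the symbol rule. Of these, 52 (42.3%) had a peak, against 34.9% of the 152 genes and 18.1% of all protein-coding genes. By list the shares were 31.7% for V5 over input, 19.5% for V5 over empty vector, 27.6% for FLAG over input and 13.0% for FLAG over empty vector, against 26.3%, 13.8%, 27.6% and 9.87% of the 152 genes. None of these differences was tested. By class, a peak was found in 16 of 37 replication genes, 24 of 53 segregation genes, 7 of 11 genes of E2F and RB control, 4 of 12 genes of ubiquitin control and 1 of 10 checkpoint genes. Intervals of the 4-list intersection were found in 5 of the 123 genes, against 9 of the 152 genes (5.92%) and 2.07% of all protein-coding genes. CDT1, the factor that loads the MCM ring with CDC6, had 6 intervals and 14, 13, 12 and 5 peaks, with maxima of 4.51, 5.25, 4.33 and 3.66. POLE, the catalytic subunit of polymerase epsilon, had 2 intervals and reached 5.28 for FLAG over input. RCC2, a protein of the spindle and centromere, had 3 intervals. BIRC5 (survivin, of the chromosomal passenger complex) and MAD2L1 (of the spindle checkpoint) had 1 each, with 4.80 and 4.91 for V5 over input.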

How the data were processed

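The data were eCLIP libraries of V5- and 3xFLAG-tagged dSpCas9, their size-matched inputs and empty vector IPs (2 replicates each). The submitters' processing notes name GRCh38, UMI-tools 1.0.0, cutadapt 1.14, STAR 2.4.0i and SAMtools 1.6. The authors called peaks, compared IP with control reads in each, and used the Irreproducible Discovery Rate to combine replicates into 4 lists. Each peak has a deposited log2 value (geometric mean of IP over control) and a deposited −log10 p-value, and the lists hold none under 3.00 and 3.01. Library depth is unknown, so no interval was given for an enrichment. How reads were scaled before the ratio was taken is not given in the sources used here.

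Peaks were assigned to GENCODE 44 genes by at least 1 nt of exon on the same strand, and to a region of the canonical transcript by their midpoint. Peaks that overlapped a second protein-coding gene were 2 of the 294, and none overlapped an exon of a non-coding gene. The 4 lists were intersected within each antibody and then between antibodies. Motifs came from ViennaRNA 2.7.2 (window 70 nt, 50 nt flanks) where pairing probability was below 0.7 for the U and above 0.5 for all 5 bases after it. No test was made, since 1 value per peak leaves no replicate error. Shares have 95% Wilson intervals, which cover counting error only. Members, lists, roles and comparisons were chosen with earlier results of these data known. Genes named were those with an interval of the 4-list intersection, with 1 of the 5 highest values in a list, with 1 of the 5 highest numbers of peaks, or with the highest value within a role over input in both antibodies, and the listed pathway genes with such an interval. Others were named after their values were seen, as examples of their role. The intersection, region and motif steps were tested on simulated data. Statistics used Python 3.11.15, numpy 2.4.6 and scipy 1.17.1. Protein-level, editing and qPCR data were not analysed here.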

Additional observations from a re-analysis of the deposited data

How the results depend on the processing

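For 34 results, 234 values were recomputed under other choices, and 202 kept within 1.5 times the count, or within the Wilson or median interval of the value given above. Another 32 moved, and the cause was not tested beyond what each choice removes by construction. Where every list had to reach a log2 enrichment of 4, 27, 20, 16 and 4 peaks on 13, 11, 13 and 3 genes were left for V5 over input, V5 over empty vector, FLAG over input and FLAG over empty vector, with medians of 4.36, 4.37, 4.46 and 4.25. Only 1 interval on 1 gene was then in all lists. FLAG over input then had 68.8% of its peaks in the 3′ UTR and 25% in the CDS, V5 over empty vector had 80% in the CDS, and FLAG over empty vector had 25% in the 5′ UTR. The share that overlapped the other antibody's peaks over input was 22.2% for V5 and 43.8% for FLAG. With a −log10 p of at least 5, V5 over empty vector named 13 genes and FLAG over empty vector had 15 peaks. With looser pairing limits (0.9 and 0.4) motif shares were 68.1%, 64.1%, 76.9% and 65.2%, and without flanks the share for FLAG over input was 34.1%. Leaving out MCM2 to MCM7, a choice made after seeing the data, left 34 peaks for V5 over empty vector, with 44.1% in the CDS, 38.2% in the 3′ UTR and 47.1% with a motif, and gave 41.9% in the CDS for V5 over input. Without MCM4 alone, also chosen after seeing the data, all 34 results stayed within those limits. The same held when the genes classed under transcription or as other were left out. So did canonical exons only, merged touching peaks, peaks shared between genes left out, and other overlap rules, for the results to which they apply. The share of CDS peaks in the first 20% was not among the 34 results. Without MCM4 it was 26.0% for V5 over input and 15.6% for V5 over empty vector, against 36.1% and 37.2% with it. No paired analysis was possible because each deposited value already combines both replicates, and for the same reason no replicate could be left out.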
